A study of Mus musculus with 9 samples.

Results

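The Id genes (inhibitors of differentiation) Id1, Id2, Id3 and Id4 were followed across cells sorted from mouse brain by 3 fluorescent reporters. The members were the rows carrying these symbols, and all 4 were measured, out of 11315 genes. All cells came from C57BL/6 mice at postnatal day 60, and each reporter group had 3 RNA-seq libraries, 9 in all. The groups were cells positive for PDGFRa::GFP, which the labels call oligodendrocyte progenitors, for PLP::GFP, called pre-myelinating oligodendrocytes, and for NDRG1-eGFP, called myelinating oligodendrocytes. They are named by reporter here (PDGFRa-GFP, PLP-GFP and NDRG1-eGFP), because myelin genes were abundant in every group. In these animals the fluorescent protein marks cells in which the promoter of the named gene is or has been active, so each sort follows that promoter and not a cell type as such. Each library is given as 1 normalized value per gene on a log2 scale. A difference of 1 on this scale is a doubling.

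Id proteins are helix-loop-helix proteins without the basic region that contacts DNA. They pair with E proteins, the broadly expressed basic helix-loop-helix (bHLH) factors encoded by Tcf3, Tcf4 and Tcf12, and keep them from binding E-box sequences together with tissue-specific bHLH factors such as Olig1 and Olig2. Id1, Id2 and Id3 are classical direct targets of bone morphogenetic protein (BMP) signalling through Smad proteins, and Id2 and Id4 are known as inhibitors of oligodendrocyte differentiation.

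Library-wide facts bear on every value below. The values of a library ran from 0.29 to 0.32 at the lowest to 21.87 at the highest, and every median was 10.57. All 4 Id genes lay below that median in every library. Raw counts were not analysed here, so the sequencing depth is unknown. Over all genes, libraries sharing a reporter had Pearson correlations of 0.931 to 0.985, and libraries of different reporters 0.876 to 0.932. PDGFRa-GFP replicate 3 stood apart, at 0.935 and 0.931 with the other libraries of its group, which had 0.982 with each other. Markers of the labelled stages were called in both directions. Comparing PLP-GFP cells with PDGFRa-GFP cells, 1 of 8 measured progenitor markers was higher and 2 were lower, and each of the other comparisons had 1 higher and 1 lower. The 11 myelin genes had 3 higher and 3 lower calls for NDRG1-eGFP against PLP-GFP cells, 1 higher and 2 lower for PLP-GFP against PDGFRa-GFP cells, and 2 lower for NDRG1-eGFP against PDGFRa-GFP cells. The shares of all genes called in these comparisons were 48.3%, 17.0% and 21.1%, in that order. Mbp, the major myelin protein gene, lay between 17.55 and 19.71 in all 9 libraries. Pdgfra, the receptor gene of progenitors and of fibroblasts, was at 6.87, 7.54 and 5.47 in PDGFRa-GFP libraries, at 1.52, 4.98 and 1.63 in PLP-GFP libraries and at 5.85, 4.98 and 6.26 in NDRG1-eGFP libraries. Whether the replicates are separate mice is not stated in the labels; p-values here reflect only the spread among libraries, which may be technical.

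The 4 genes lie on 4 chromosomes. In GRCm38 (GENCODE M21), Id1 spans chr2:152736251-152737410 on the forward strand, Id2 chr12:25093799-25097140 on the reverse strand, Id3 chr4:136143497-136145755 on the forward strand and Id4 chr13:48261228-48266026 on the forward strand. At most 0.52% of the 50-base windows of a member's transcripts, in Id2, also occurred at another locus. The Id4 locus overlaps 2 other annotated genes, A330033J07Rik, typed antisense, and Gm49291, typed lincRNA. Since strand use in counting is not given in the sources used here, their reads cannot be told apart from those of Id4.

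The sequences before the RefSeq start are shown for Id2 and Id3, which moved together, and for Id4, which did not move with them. Each is the 250 bases before the start (RefSeq, GRCm38.p6), read 5′ to 3′ on the gene's strand, with motif matches in capitals. The Id2 window is chr12:25096093-25096342 (reverse strand), the Id3 window chr4:136143572-136143821 (forward) and the Id4 window chr13:48260866-48261115 (forward). The Id2 and Id3 windows lie inside the GENCODE spans given above, which reach further upstream. Only the Id4 window lies wholly before its span.
Id2: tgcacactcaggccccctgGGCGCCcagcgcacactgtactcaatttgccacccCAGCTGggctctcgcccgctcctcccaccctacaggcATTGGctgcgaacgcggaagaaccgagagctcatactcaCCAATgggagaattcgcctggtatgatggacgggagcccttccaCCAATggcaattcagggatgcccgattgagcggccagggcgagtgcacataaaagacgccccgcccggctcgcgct
Id3: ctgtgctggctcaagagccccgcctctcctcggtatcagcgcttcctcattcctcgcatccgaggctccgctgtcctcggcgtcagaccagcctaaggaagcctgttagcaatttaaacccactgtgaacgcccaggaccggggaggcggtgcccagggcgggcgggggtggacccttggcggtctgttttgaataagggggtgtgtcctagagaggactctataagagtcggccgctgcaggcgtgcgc
Id4: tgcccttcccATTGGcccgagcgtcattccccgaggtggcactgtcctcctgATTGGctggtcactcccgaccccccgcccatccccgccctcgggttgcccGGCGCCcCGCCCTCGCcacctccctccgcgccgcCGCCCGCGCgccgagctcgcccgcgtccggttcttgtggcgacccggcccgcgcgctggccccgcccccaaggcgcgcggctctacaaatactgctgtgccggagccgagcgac

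The capitals mark the E-box CANNTG, the site of E protein and bHLH pairs, the GC-rich sequence GGCGCC, which BMP Smads can bind, the CCAAT box and the Egr box GCGNGGGCG, searched on both strands. No match overlapped one of another motif. Id2 held 1 E-box (CAGCTG, starting 196 bases before the start), 1 GGCGCC and 3 CCAAT boxes. Id4 held 1 GGCGCC, 2 CCAAT boxes and 2 Egr boxes, and the Id3 window held none of the 4 motifs. Among 32851 RefSeq windows of this length, 66.2% held an E-box, 9.59% GGCGCC, 33.8% a CCAAT box and 4.70% an Egr box. The share of G and C was 62.8% in the Id2 and Id3 windows and 75.6% in the Id4 window. Of the 4 members, 3 matched an entry in the promoter table, and Id1 did not.

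Id1, Id2 and Id3 were low in PLP-GFP cells and high on both sides, in PDGFRa-GFP and in NDRG1-eGFP cells. Id1 had the deepest trough of these genes. Its values were 8.82, 7.89 and 7.95 in PDGFRa-GFP libraries, 5.67, 5.20 and 4.88 in PLP-GFP libraries and 9.07, 8.84 and 8.83 in NDRG1-eGFP libraries. Every PLP-GFP library lay below every other library by more than 2 log2 units. Within its library, Id1 stood at percentiles 25.4 to 27.9 of genes in NDRG1-eGFP cells and 2.78 to 4.73 in PLP-GFP cells. At the PLP-GFP end the scale is coarse, since 16 to 19 genes shared the Id1 value in each library.

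Id2, which besides E proteins can bind Olig proteins, followed the same course from a higher value. It was at 9.82, 9.99 and 9.26 in PDGFRa-GFP libraries, at 7.16, 6.85 and 7.24 in PLP-GFP libraries and at 10.13, 9.32 and 9.31 in NDRG1-eGFP libraries. The PLP-GFP libraries were again separate from the rest, and the other groups overlapped each other. Id3, often co-expressed with Id1, changed least. It was at 9.74, 9.42 and 9.70 in PDGFRa-GFP libraries, at 8.40, 8.09 and 8.45 in PLP-GFP libraries and at 9.97, 9.84 and 9.28 in NDRG1-eGFP libraries. Here too the PLP-GFP libraries were the 3 lowest and the other groups overlapped.

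Id4, the member most associated with neural progenitors and astrocytes, took another course and was lowest in NDRG1-eGFP cells. It was at 7.69, 8.15 and 7.63 in PDGFRa-GFP libraries, at 6.91, 7.20 and 6.90 in PLP-GFP libraries and at 6.42, 4.21 and 4.45 in NDRG1-eGFP libraries. The 3 groups did not overlap, but the NDRG1-eGFP libraries were far from each other, with replicate 1 about 2 log2 units above the others. The within-group SD of Id4, pooled over groups, was 0.73, larger than that of 90.3% of genes, against 0.38 for Id1, 0.37 for Id2, 0.26 for Id3 and a median of 0.26 over all genes.

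**Figure D1:**
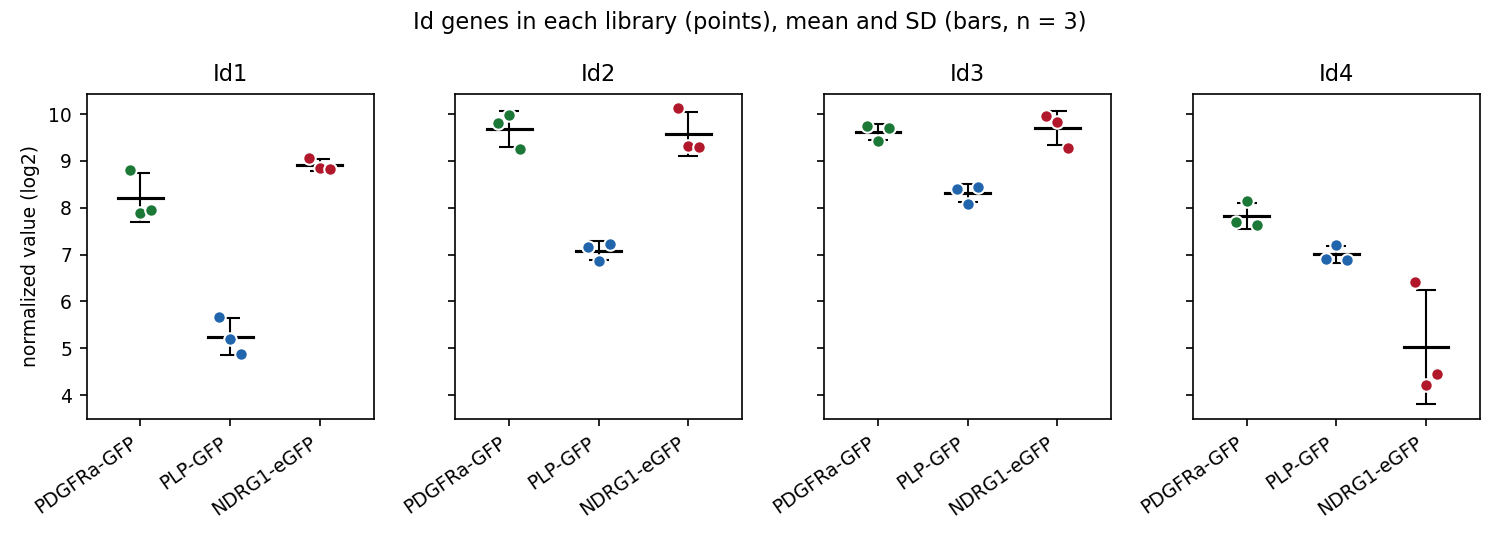
Normalized log2 value (y axis) of each Id gene in each library (points), by reporter group (x axis), with the group mean (long bar) and SD (short bars, n = 3). Id1, Id2 and Id3 have their 3 lowest points in PLP-GFP cells, and Id4 has its 3 lowest in NDRG1-eGFP cells.

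Setting NDRG1-eGFP beside PLP-GFP cells asks how cells labelled myelinating differ from cells labelled pre-myelinating. Of the 4 Id genes, 3 were higher in NDRG1-eGFP cells and 1 was lower (limma, Benjamini-Hochberg adjusted p under 0.05 over all genes). The background is high here: 48.3% of all genes were called in this comparison, 26.1% as higher and 22.2% as lower, and 66.4% had libraries that did not overlap, as did all 4 Id genes. Counts of members are therefore read with the sizes. Id1 was 12.7-fold higher, a log2 fold change of 3.66 ± 0.34 (SE, 95% interval 2.91 to 4.41, limma adjusted p = 3.13e-05), which was the 84th highest of 11315. Id2 was 5.66-fold higher (2.50 ± 0.28, 1.87 to 3.13, adjusted p = 1.21e-04), and Id3 was 2.61-fold higher (1.38 ± 0.22, 0.89 to 1.88, adjusted p = 7.98e-04). The intervals of Id1 and Id3 did not overlap.

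Id4 fell in NDRG1-eGFP against PLP-GFP cells by 1.97 on the log2 scale (SE 0.55, 95% interval -3.19 to -0.76, limma adjusted p = 0.0134), which is 3.93-fold lower. The call was lost without PLP-GFP replicate 2 (-1.88, adjusted p = 0.0516) and kept without each of the other 8 libraries. Without NDRG1-eGFP replicate 1, the library with the most Id4 in its group, the difference was -2.67 (adjusted p = 0.00115). A constant of 100 added on the linear scale, which damps low values, brought Id4 to -0.72 and Id1 to 2.07, and removing the trend on transcript length brought Id3 to 0.87, with all 3 calls kept.

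The comparison of PLP-GFP with PDGFRa-GFP cells shares the PLP-GFP libraries with the comparison before, so the 2 sets of differences are not independent. Of the 4 members, 3 were lower in PLP-GFP cells and none was higher, where 17.0% of all genes were called, 8.53% lower and 8.46% higher. Id1 fell by 2.97 on the log2 scale (SE 0.34, 95% interval -3.72 to -2.22, limma adjusted p = 0.00104), a 7.82-fold difference. Id2 fell by 2.61 (SE 0.28, -3.23 to -1.98, adjusted p = 8.73e-04), or 6.09-fold, and Id3 fell by 1.31 (SE 0.22, -1.80 to -0.82, adjusted p = 0.00777), or 2.48-fold. Id4 had a log2 fold change of -0.82 ± 0.55 (95% interval -2.04 to 0.39, adjusted p = 0.311) and was not called, although its PLP-GFP libraries all lay below its PDGFRa-GFP libraries. Libraries did not overlap for all 4 members and for 42.3% of all genes. With the constant of 100, Id1 fell by 1.53 and remained called.

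The third comparison shares its libraries with the other comparisons. NDRG1-eGFP and PDGFRa-GFP cells, at the ends of the labelled sequence, had 1 called member, Id4, where 21.1% of all genes were called, 10.4% lower and 10.7% higher. Without PDGFRa-GFP replicate 3, 40.8% of all genes were called. The split of those calls depended on centring, from 1207 higher and 1176 lower as deposited to 591 higher and 1362 lower after recentring on the median ratio. Id4 was 6.95-fold lower in NDRG1-eGFP cells, having fallen by 2.80 on the log2 scale (SE 0.55, 95% interval -4.01 to -1.58, limma adjusted p = 0.00645). It fell by 1.24 with the constant of 100 and remained called. Id1 had a log2 fold change of 0.69 ± 0.34 (-0.06 to 1.44, adjusted p = 0.166). Its NDRG1-eGFP libraries cleared its PDGFRa-GFP libraries by only 0.01, which like Id4 puts it among the 35.3% of genes whose libraries did not overlap. Id2 differed by -0.11 ± 0.28 (-0.73 to 0.52, adjusted p = 0.812) and Id3 by 0.08 ± 0.22 (-0.41 to 0.57, adjusted p = 0.825), and the sign of each changed under some alternatives. These intervals reach to -0.73 for Id2 and to 0.57 for Id3.

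**Figure D2:**
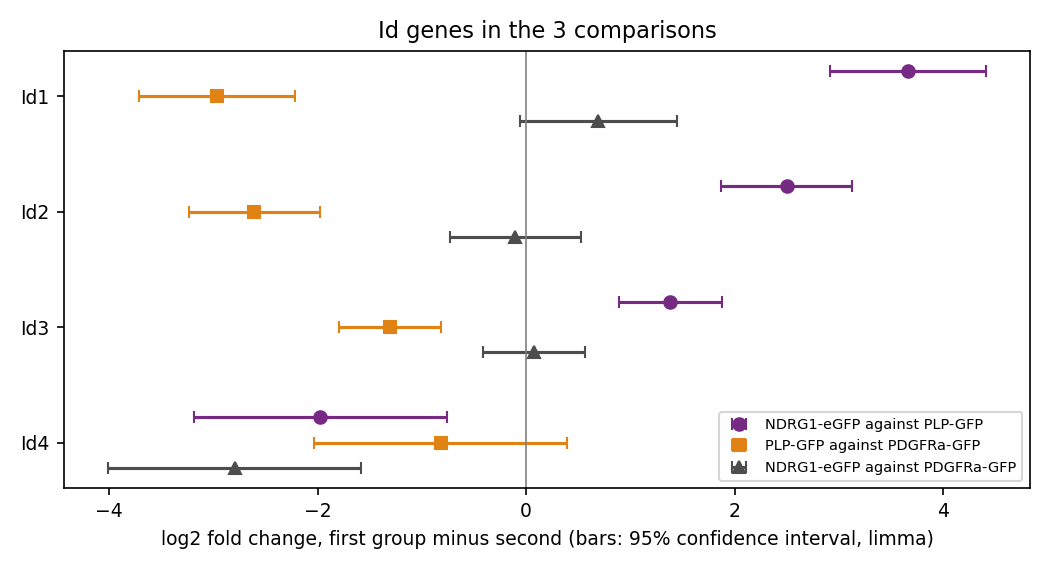
Log2 fold changes (x axis, first group minus second) of the 4 Id genes (y axis) in the 3 comparisons, with 95% confidence intervals from limma. Id1, Id2 and Id3 lie to the right of 0 in NDRG1-eGFP against PLP-GFP cells and to the left in PLP-GFP against PDGFRa-GFP cells, while all 3 Id4 estimates lie to the left.

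As a list, the 4 Id genes had a median log2 fold change of 1.94 in NDRG1-eGFP against PLP-GFP cells, beside 0.08 over all genes. The medians were -1.96 and 0.03 in PLP-GFP against PDGFRa-GFP cells, and -0.01 and 0.14 in NDRG1-eGFP against PDGFRa-GFP cells. In bulk libraries of sorted cells, fewer cells expressing a gene and less RNA of it per cell cannot be told apart.

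Genes of other cells and of tissue handling moved with Id1, Id2 and Id3, and are given here as measured. Markers of fibroblast-like cells, collagen and matrix genes of the meninges and vessel walls, had 9 of 12 members measured. Of these, 8 were higher in NDRG1-eGFP cells than in PLP-GFP cells (limma), where 48.3% of all genes were called. In PLP-GFP against PDGFRa-GFP cells 8 were lower, where 17.0% were called, and between NDRG1-eGFP and PDGFRa-GFP cells none was called, where 21.1% were. Their summed level on the log2 scale ran from 12.78 to 13.73 in PDGFRa-GFP, from 7.82 to 8.89 in PLP-GFP and from 11.59 to 13.48 in NDRG1-eGFP libraries. Col1a1, a defining collagen gene, was at 10.33, 9.65 and 9.34, at 3.54, 6.21 and 2.83, and at 8.99, 9.01 and 7.52 in the same order of groups. Its order of groups is that of Id2, with PLP-GFP lowest, and the part of these cells in the Id1, Id2 and Id3 differences was not tested.

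Immediate early genes, which are switched on within minutes of stimulation and by tissue dissociation, were all measured (22 of 22). In NDRG1-eGFP against PLP-GFP cells 15 were higher, where 48.3% of all genes were called. In PLP-GFP against PDGFRa-GFP cells 7 were lower, where 17.0% were called, and in NDRG1-eGFP against PDGFRa-GFP cells none was called, where 21.1% were. Fos was at 16.43, 16.30 and 11.20 in PDGFRa-GFP libraries, at 10.60, 10.37 and 10.34 in PLP-GFP libraries and at 16.41, 12.90 and 16.43 in NDRG1-eGFP libraries. PDGFRa-GFP replicate 3 and NDRG1-eGFP replicate 2 were thus low for their groups, and the list as a whole showed it, with medians of 8.78 and 9.65 there against 11.84 to 12.48 in the other libraries of those groups and 7.88 to 8.33 in PLP-GFP libraries. In these libraries Id1 was at 7.95 and 8.84, Id2 at 9.26 and 9.32 and Id3 at 9.70 and 9.84. All of these lay above the highest PLP-GFP library of the same gene. Within their own groups, Id2 in PDGFRa-GFP replicate 3 was the lowest of the 6 libraries outside PLP-GFP, and in NDRG1-eGFP replicate 2 it lay beside replicate 3 (9.31) and below replicate 1 (10.13). With both libraries left out, Id1 differed between NDRG1-eGFP and PLP-GFP cells by 3.70 (limma adjusted p = 1.09e-04), Id2 by 2.64, Id3 by 1.31 and Id4 by -1.57 (adjusted p = 0.0336), and every Id call in the 3 comparisons was kept. The PDGFRa-GFP and NDRG1-eGFP libraries then remaining are those with the high immediate early medians, and the part of handling in the Id differences was not tested.

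Markers of newly formed oligodendrocytes, a list that includes Bmp4, had 9 of 9 members measured. Of these, 4 were higher and 1 lower in NDRG1-eGFP against PLP-GFP cells, where 48.3% of all genes were called. In PLP-GFP against PDGFRa-GFP cells 3 were lower, where 17.0% were called. In NDRG1-eGFP against PDGFRa-GFP cells 1 was higher and 2 lower, where 21.1% were called. Their summed log2 level ran from 14.75 to 16.05 in PDGFRa-GFP, from 15.31 to 15.40 in PLP-GFP and from 16.11 to 16.20 in NDRG1-eGFP libraries. The PLP-GFP range lay inside that of PDGFRa-GFP, whose lowest value was that of replicate 3. Among single members, the PLP-GFP libraries were the 3 lowest for Tmem163 (10.17 to 10.98), Rras2 (8.24 to 8.30) and Bmp4. Tcf7l2 (9.97 to 10.16) and Itpr2 (8.39 to 8.47) were instead lowest in NDRG1-eGFP libraries. The part of newly formed oligodendrocytes in the Id differences was not tested.

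Microglial markers had 11 of 12 members measured, of which 7 were higher in NDRG1-eGFP cells than in PLP-GFP cells, where 48.3% of all genes were called. In PLP-GFP against PDGFRa-GFP cells 2 were lower, where 17.0% were called. In NDRG1-eGFP against PDGFRa-GFP cells 1 was higher, where 21.1% were called. Their summed log2 level spanned 11.99 to 12.65 for PDGFRa-GFP, 11.59 to 12.16 for PLP-GFP and 12.65 to 13.14 for NDRG1-eGFP, a much narrower range than that of the fibroblast-like markers. The defining marker Tmem119 was at 8.38, 8.33 and 8.05 in PDGFRa-GFP, 7.29, 7.68 and 7.24 in PLP-GFP and 8.69, 9.16 and 9.15 in NDRG1-eGFP libraries. Its PLP-GFP libraries were thus lowest, as for Id1, Id2 and Id3. The list median also was lowest in PLP-GFP libraries, at 6.97 to 7.34, against 7.57 to 8.38 in PDGFRa-GFP and 8.22 to 8.92 in NDRG1-eGFP libraries. Itgam went another way, at 6.63, 6.65 and 4.63 in PDGFRa-GFP and 6.99, 6.96 and 6.67 in PLP-GFP libraries. Astrocyte markers, which bear on Id4, had 11 of 11 measured, with 1 higher and 1 lower in NDRG1-eGFP against PLP-GFP cells, 1 lower in PLP-GFP against PDGFRa-GFP cells and 1 lower in NDRG1-eGFP against PDGFRa-GFP cells. Their summed log2 level, 13.57 to 13.94, 13.39 to 13.80 and 13.46 to 13.65, overlapped between the groups. Aqp4, the astrocyte water channel gene, had log2 fold changes of 0.03, -0.15 and -0.12 in the 3 comparisons and was not called. Gjb6, also on the list, was at 10.51, 9.90 and 9.44 in PDGFRa-GFP and at 6.40, 7.13 and 6.44 in PLP-GFP libraries. In NDRG1-eGFP libraries it was at 9.75, 10.23 and 7.18, so PLP-GFP was lowest, as for Id1, Id2 and Id3. Gja1 was at 11.35, 10.76 and 10.41, at 8.71, 8.57 and 10.17, and at 10.99, 10.63 and 8.97 in the same order. Its PLP-GFP and NDRG1-eGFP libraries overlapped. Of the endothelial, pericyte and neuron markers 2 of 12, 2 of 7 and 6 of 8 were measured, and among them only the endothelial gene Cldn5 was called, at 0.35, 0.33 and 1.80 in PDGFRa-GFP, 5.21, 5.92 and 7.13 in PLP-GFP and 6.23, 6.03 and 3.12 in NDRG1-eGFP libraries. No list separated the 3 groups in the order of Id4. Of the single astrocyte markers, Slc4a4, a bicarbonate transporter gene, was at 9.02, 8.63 and 8.30, at 7.78, 7.71 and 9.58, and at 4.40, 5.14 and 4.45 in the same order of groups, low with Id4 in NDRG1-eGFP libraries. The part of other cells in the Id4 difference, and of astrocytes and microglia in the differences of Id1, Id2 and Id3, was not tested.

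**Figure D3:**
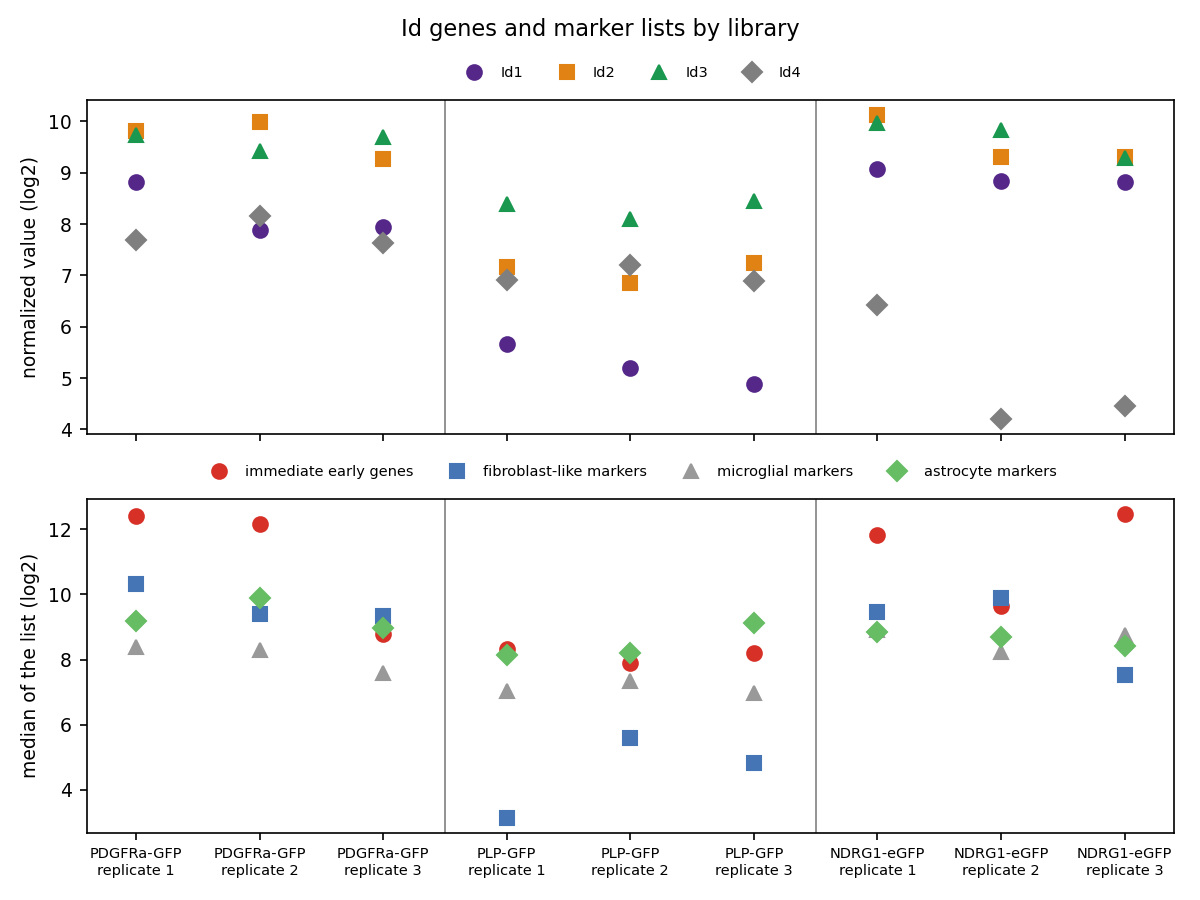
Upper panel, normalized log2 value of the 4 Id genes in each of the 9 libraries; lower panel, the median log2 value of 4 marker lists in the same libraries. The fibroblast-like median lies between 3.14 and 5.60 in the PLP-GFP libraries and between 7.52 and 10.33 in the others. The immediate early median and Id2 (9.26) are both lowest for their group in PDGFRa-GFP replicate 3. Id1 (7.89) and Id3 (9.42) are lowest for that group in replicate 2.

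Levels of different members can be set side by side only per transcript length, because the deposited values were not divided by it. On the log2 per kilobase scale, Id3 was highest in each group, with means of 9.27 ± 0.17, 7.96 ± 0.20 and 9.34 ± 0.37 (SD, n = 3) over PDGFRa-GFP, PLP-GFP and NDRG1-eGFP libraries. Id4, the longest transcript, was lowest in PDGFRa-GFP (5.88 ± 0.28) and NDRG1-eGFP cells (3.08 ± 1.21). In PLP-GFP cells Id1 (5.04 ± 0.39) and Id4 (5.06 ± 0.17) did not differ beyond their spread. In NDRG1-eGFP cells Id1 (8.70 ± 0.13) and Id2 (8.61 ± 0.47) did not either. In PDGFRa-GFP cells the order was Id3, Id2 (8.71 ± 0.38), Id1 (range 7.68 to 8.60) and Id4, and the ranges of Id1 and Id2 overlapped.

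The makeup of the summed Id transcript level, per kilobase on the linear scale, therefore shifted between groups. Id3 made up 64.6% ± 2.5 of the sum in PLP-GFP cells (SD, n = 3), against 45.3% ± 6.8 in PDGFRa-GFP and 44.3% ± 4.9 in NDRG1-eGFP cells. Id1 made up 8.73% ± 2.24 in PLP-GFP, 19.2% ± 5.0 in PDGFRa-GFP and 28.4% ± 3.8 in NDRG1-eGFP cells. The share of Id4 was 4.39% ± 1.08, 8.80% ± 2.06 and 0.67% ± 0.47 over PDGFRa-GFP, PLP-GFP and NDRG1-eGFP libraries. These shares follow from the values above and are given as a description.

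**Figure D4:**
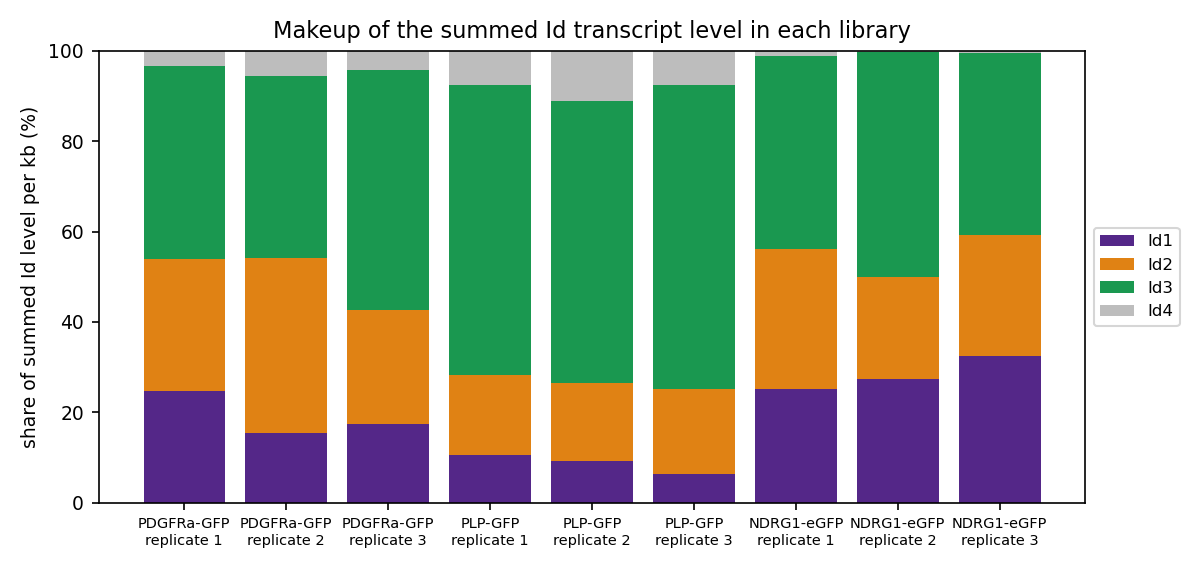
Share (%, y axis) of each Id gene in the summed linear Id level per kilobase in each library (x axis). Id3 takes 62.4% to 67.3% in the PLP-GFP libraries and 40.4% to 53.1% in the others, and Id4 is a thin band of 0.33% to 1.21% in NDRG1-eGFP libraries.

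Of the 3 E proteins, the partners that Id proteins sequester, 1 was called, in 2 comparisons. Of all genes, 48.3% were called in NDRG1-eGFP against PLP-GFP cells, 17.0% in PLP-GFP against PDGFRa-GFP cells and 21.1% in NDRG1-eGFP against PDGFRa-GFP cells. Tcf4 was at 14.00, 14.12 and 13.76 in PDGFRa-GFP, 13.85, 13.78 and 13.83 in PLP-GFP and 14.47, 14.68 and 14.44 in NDRG1-eGFP libraries, so that the NDRG1-eGFP libraries were the 3 highest. It was higher in NDRG1-eGFP cells than in PLP-GFP cells by 0.71 ± 0.12 (SE, limma adjusted p = 0.00126) and than in PDGFRa-GFP cells by 0.57 ± 0.12 (adjusted p = 0.0108), and by 1.36 and 0.94 with the length trend removed. Tcf3 stayed between 11.67 and 11.98 in all libraries, and its log2 fold changes in the 3 comparisons, in the order above, were 0.13, 0.02 and 0.15, none of them called. Tcf12 had -0.28, 0.05 and -0.23 in the same order, also not called, and its sign changed in all 3 when the length trend was removed. The first of these differences was called after median ratio recentring (-0.36, adjusted p = 0.0328), without PDGFRa-GFP replicate 3 (-0.28, adjusted p = 0.0451) and without NDRG1-eGFP replicate 3 (-0.37, adjusted p = 0.0410). Summed per kilobase, the E proteins exceeded the Ids by 1.54 ± 0.20 log2 units (SD, n = 3) in PDGFRa-GFP, 3.31 ± 0.12 in PLP-GFP and 1.72 ± 0.33 in NDRG1-eGFP cells. The PLP-GFP libraries had the 3 widest margins, and the other groups overlapped.

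Tissue-specific bHLH factors, which pair with E proteins, had only 3 of 18 members measured. Of these, 1 was called, in NDRG1-eGFP against PLP-GFP cells, where 48.3% of all genes were called. Olig1, required for myelin repair, was at 16.68, 16.86 and 16.77 in PDGFRa-GFP, 16.55, 16.38 and 16.45 in PLP-GFP and 16.86, 16.89 and 16.79 in NDRG1-eGFP libraries. The PLP-GFP libraries were lowest, by a narrow margin. Olig1 was higher in NDRG1-eGFP cells than in PLP-GFP cells by 0.39 ± 0.11 (limma adjusted p = 0.0147), a call that was lost without PLP-GFP replicate 2 (0.34, adjusted p = 0.0693) or replicate 3 (0.38, adjusted p = 0.0593), after median ratio recentring (0.31, adjusted p = 0.0501) and with the length trend removed (0.04, adjusted p = 0.801). Olig2, the lineage determinant, had -0.80 ± 0.40 (adjusted p = 0.122) and Bhlhe22 0.52 ± 0.44 (adjusted p = 0.349) in that comparison, and neither was called in any comparison.

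Of the bHLH repressors, 7 of 10 were measured, with 1 higher and 1 lower in NDRG1-eGFP against PLP-GFP cells, none called in PLP-GFP against PDGFRa-GFP cells and 1 lower in NDRG1-eGFP against PDGFRa-GFP cells. The shares of all genes called were 48.3%, 17.0% and 21.1% in the same order. Hes6, which antagonizes Hes1, was at 9.46, 9.55 and 10.28 in PDGFRa-GFP, 9.19, 9.12 and 9.39 in PLP-GFP and 10.63, 10.30 and 10.42 in NDRG1-eGFP libraries, and was higher in NDRG1-eGFP cells than in PLP-GFP cells by 1.22 ± 0.22 (limma adjusted p = 0.00170), or by 0.70 after the length correction. The calls of the Notch targets Heyl (-2.51 ± 0.94 in NDRG1-eGFP against PLP-GFP cells, adjusted p = 0.0487) and Hey1 (-1.33 ± 0.41 in NDRG1-eGFP against PDGFRa-GFP cells, adjusted p = 0.0423) were lost in 6 and in 7 of the 9 fits that leave out 1 library and in 6 and in 4 of 11 other alternatives. In the former, Heyl ranged from -3.14 to -1.61 and Hey1 from -1.57 to -1.09.

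The BMP pathway upstream of the Id genes was described by 46 listed genes, of which 29 were measured. In NDRG1-eGFP against PLP-GFP cells 3 were higher and 12 lower, with a median log2 fold change of -0.46 beside 0.08 over all genes. Those 15 of 29 calls are a share near the 48.3% of all genes called there, of which 26.1% were higher and 22.2% lower. In PLP-GFP against PDGFRa-GFP cells 4 were higher and 2 lower, where 17.0% of all genes were called, and in NDRG1-eGFP against PDGFRa-GFP cells none was higher and 3 were lower, where 21.1% were called. Every receptor and Smad gene called in the first of these comparisons was lower in NDRG1-eGFP cells, where Id1, Id2 and Id3 were higher, and the 3 higher genes were Bmp4, Bambi and Nbl1.

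Among the ligands 5 of 13 were measured, and Bmp4, which in this lineage is also a marker of newly formed oligodendrocytes, was called. It was at 8.74, 9.08 and 6.83 in PDGFRa-GFP, 4.57, 3.37 and 4.20 in PLP-GFP and 7.73, 7.81 and 5.29 in NDRG1-eGFP libraries, with the PLP-GFP libraries the 3 lowest. It was higher in NDRG1-eGFP cells than in PLP-GFP cells by 2.90 ± 0.78 (SE, limma adjusted p = 0.0116) and in PLP-GFP against PDGFRa-GFP cells it had -4.17 ± 0.78 (adjusted p = 0.0105). The first call was lost without NDRG1-eGFP replicate 1 (2.51, adjusted p = 0.0501) or replicate 2 (2.47, adjusted p = 0.0519) and with the constant of 100 (1.04, adjusted p = 0.0618), and the other without PLP-GFP replicate 2 (-3.83, adjusted p = 0.0565). Bmp2, Bmp5, Bmp6 and Bmp7 had no call. Of all genes, 48.3% were called in NDRG1-eGFP against PLP-GFP cells and 17.0% in PLP-GFP against PDGFRa-GFP cells.

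Of the receptors and co-receptors, 8 of 11 were measured, and 5 were lower in NDRG1-eGFP cells than in PLP-GFP cells. Of all genes, 48.3% were called there, 22.2% as lower. Neo1, the co-receptor neogenin, was at 14.03, 13.77 and 13.19 in PDGFRa-GFP, 14.59, 14.83 and 14.67 in PLP-GFP and 13.41, 13.36 and 13.35 in NDRG1-eGFP libraries, so that PLP-GFP cells were highest. Its log2 fold change was -1.32 ± 0.19 in NDRG1-eGFP against PLP-GFP cells (limma adjusted p = 4.02e-04) and 1.04 ± 0.19 in PLP-GFP against PDGFRa-GFP cells (adjusted p = 0.00926). The type I receptor gene Bmpr1a (-1.02 ± 0.16 and 0.72 ± 0.16) and the type II receptor gene Acvr2a (-1.41 ± 0.29 and 1.08 ± 0.29) had the same peak in PLP-GFP cells. The PLP-GFP against PDGFRa-GFP calls were lost for Neo1 without PLP-GFP replicate 2 (0.97), for Bmpr1a without PDGFRa-GFP replicate 2 (0.72) or PLP-GFP replicate 2 (0.71) or 3 (0.70), and for Acvr2a without PDGFRa-GFP replicate 2 (1.09) or PLP-GFP replicate 2 (0.88) or 3 (1.04). With the length trend removed, these calls were also lost for Bmpr1a (0.43) and Acvr2a (0.79). That of Acvr2a was lost too in limma without the trend (1.08, adjusted p = 0.0506) and with PDGFRa-GFP replicate 3 and NDRG1-eGFP replicate 2 both left out (0.96, adjusted p = 0.0505). Also with the length trend removed, the differences between NDRG1-eGFP and PLP-GFP cells shrank to -0.73 for Neo1, -0.52 for Bmpr1a and -0.94 for Acvr2a, with the calls kept. Rgma, a co-receptor that binds neogenin, followed Id4 instead. It was at 11.30, 11.16 and 11.60, then 11.02, 11.11 and 11.01, then 10.13, 9.71 and 10.25 in PDGFRa-GFP, PLP-GFP and NDRG1-eGFP libraries. It was lower in NDRG1-eGFP cells than in PLP-GFP cells (-1.02 ± 0.18, adjusted p = 0.00120) and than in PDGFRa-GFP cells (-1.32 ± 0.18, adjusted p = 6.17e-04).

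All 4 BMP Smad genes were measured, and 3 were lower in NDRG1-eGFP cells than in PLP-GFP cells, where 22.2% of all genes were called lower. Smad4, the partner shared by BMP and TGF-beta signals, was at 11.81, 11.25 and 11.91 in PDGFRa-GFP, 11.61, 11.87 and 11.94 in PLP-GFP and 10.08, 9.61 and 9.26 in NDRG1-eGFP libraries. Every NDRG1-eGFP library was more than 1 log2 unit below the rest, and the other groups overlapped. Smad4 had a log2 fold change of -2.15 ± 0.23 against PLP-GFP cells (SE, limma adjusted p = 9.09e-05) and -2.01 ± 0.23 against PDGFRa-GFP cells (adjusted p = 2.47e-04). The receptor-activated Smads differed among themselves. Smad1 stayed between 11.21 and 11.72 with no call, whereas Smad5 was highest in PLP-GFP cells (-0.93 ± 0.15 in NDRG1-eGFP against PLP-GFP, adjusted p = 7.49e-04, and 0.82 ± 0.15 in PLP-GFP against PDGFRa-GFP cells, adjusted p = 0.00932). Both Smad5 calls were lost with the length trend removed (-0.38, adjusted p = 0.0658, and 0.53, adjusted p = 0.0506), and the second also without PLP-GFP replicate 2 (0.74, adjusted p = 0.0576). Smad9, a low gene at 2.46 to 7.43, was lower in NDRG1-eGFP cells than in PLP-GFP cells (-3.31 ± 0.91, adjusted p = 0.0128), or -1.01 with the constant of 100.

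Inhibitors of the pathway had 12 of 18 members measured, 2 higher (Bambi and Nbl1) and 4 lower (Smad7, Skil, Smurf2 and Twsg1) in NDRG1-eGFP against PLP-GFP cells. These calls are a share near the 48.3% of all genes called there. Smad7, the intracellular feedback inhibitor, was at 13.40, 13.31 and 12.90 in PDGFRa-GFP, 13.04, 13.15 and 13.25 in PLP-GFP and 12.09, 11.58 and 11.62 in NDRG1-eGFP libraries. Its NDRG1-eGFP libraries were the 3 lowest, with log2 fold changes of -1.39 ± 0.17 against PLP-GFP (limma adjusted p = 2.24e-04) and -1.44 ± 0.17 against PDGFRa-GFP cells (adjusted p = 3.31e-04). Bambi, a pseudoreceptor that is itself a BMP target, was at 8.08, 7.74 and 8.04, then 7.09, 7.42 and 6.94, then 8.60, 7.94 and 8.48 in PDGFRa-GFP, PLP-GFP and NDRG1-eGFP libraries. Like Id1 it was lowest in PLP-GFP cells, with a log2 fold change of 1.19 ± 0.27 in NDRG1-eGFP against PLP-GFP cells (adjusted p = 0.00533) and of -0.80 ± 0.27 in PLP-GFP against PDGFRa-GFP cells (adjusted p = 0.0673, not called).

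Nbl1, a secreted BMP antagonist, was at 10.26, 8.93 and 9.25 in PDGFRa-GFP, 5.93, 5.07 and 6.24 in PLP-GFP and 9.71, 10.58 and 6.95 in NDRG1-eGFP libraries. It had log2 fold changes of 3.33 ± 0.78 in NDRG1-eGFP against PLP-GFP cells (limma adjusted p = 0.00579) and -3.73 ± 0.78 in PLP-GFP against PDGFRa-GFP cells (adjusted p = 0.0148, lost without PLP-GFP replicate 2 at -3.39, adjusted p = 0.0769). With the constant of 100 they were 2.17 and -2.39. The order of groups of Bmp4 and Nbl1 was that of the fibroblast-like markers, and NDRG1-eGFP replicate 3 had the least of both genes and the least of the marker list in its group. The part of those cells in these differences was not tested. The repressor gene Skil, with -0.88 ± 0.30 in NDRG1-eGFP against PLP-GFP cells (adjusted p = 0.0311), lost its call in 5 of the 9 fits that leave out 1 library, with values from -1.02 to -0.66 over the 9, and with the length trend removed (-0.32, adjusted p = 0.357). Smurf2, a ubiquitin ligase gene, had -0.56 (adjusted p = 0.0352) and Twsg1, which encodes a secreted BMP-binding protein, had -0.46 (adjusted p = 0.0350) in the same comparison. These 2 genes were named after their values were seen, to complete the list of called inhibitors. Their calls were lost in 4 and in 5 of the 9 fits that leave out 1 library and in limma without the trend (adjusted p = 0.0524 and 0.0551), and that of Twsg1 also with the length trend removed (-0.28, adjusted p = 0.225).

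**Figure D5:**
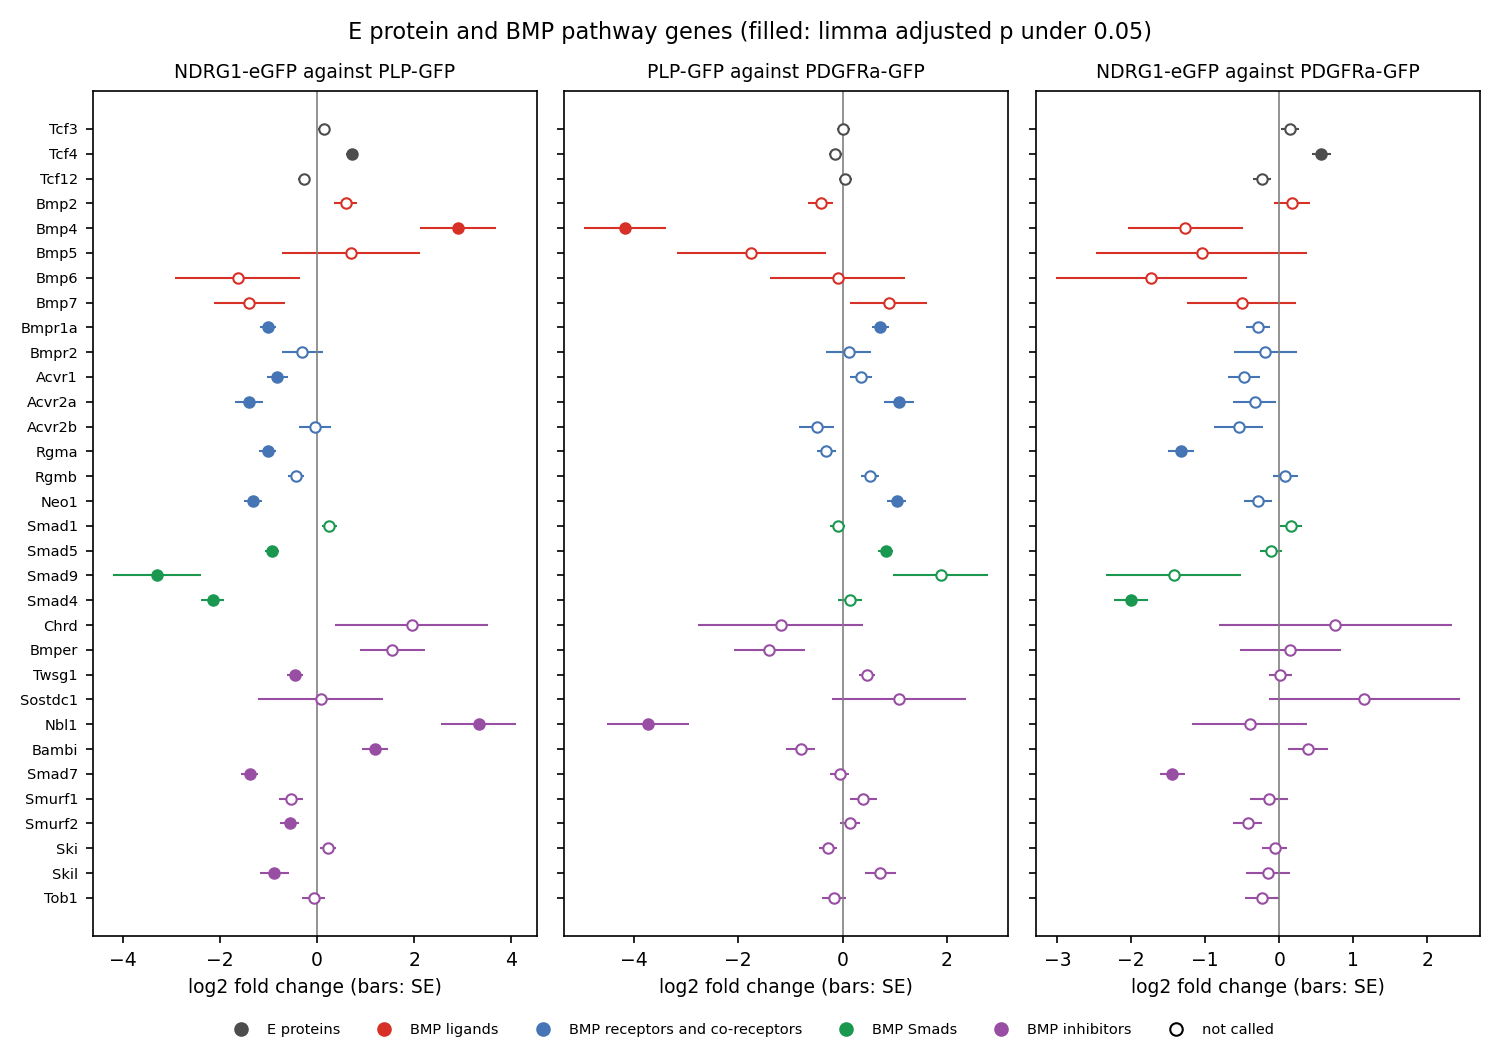
Log2 fold changes (x axes, first group minus second, bars SE) of the measured E protein and BMP pathway genes (y axis) in the 3 comparisons, coloured by list, filled where the limma adjusted p was under 0.05. Receptor and Smad genes called in NDRG1-eGFP against PLP-GFP cells lie left of 0, while Bmp4, Bambi and Nbl1 lie to the right.

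The genes most like each member were found by the root mean square difference of centred log2 values over the 9 libraries, among 9629 genes. For Id1 they were Mocs1 (0.39), Lpcat2 (0.43), Rasl11b (0.44) and Tspan13 (0.46), where the median gene differed by 1.64. Id2 was the 17th most like Id1 and Id3 the 161st. For Id2 they were Tmem176b, Klf2, Pdlim7 and Rnf122, at 0.41 each against a median of 1.30. Klf2 is on the immediate early list but was not lowest in the 2 libraries where that list was low for its group. It was at 8.88, 7.98 and 8.03 in PDGFRa-GFP replicates 1 to 3 and at 8.53, 8.27 and 7.13 in NDRG1-eGFP replicates 1 to 3. The part of handling was not tested. For Id3 they were Eci1 (0.19), Mlycd (0.22), Deb1 (0.22) and Zfyve21 (0.23), against a median of 0.76. Ordered by likeness to Id2, Id1 took place 45 and Id3 place 54. Ordered by likeness to Id3, Id2 took place 3315 (0.64) and Id1 place 7328 (1.01). The values were centred but not scaled, so these places also reflect that Id1 and Id2 changed more than Id3. They do not show a different course of groups. Id4 was far from all 3 other members, which took places 7526 to 9394 of the genes ordered by likeness to it. Its nearest genes were Eid2 (0.43), the pacemaker channel gene Hcn2 (0.51), the proteoglycan gene Ncan (0.51) and the adhesion gene Cadm4 (0.52), against a median of 1.44. Ncan had means of 7.30, 6.72 and 4.53 over PDGFRa-GFP, PLP-GFP and NDRG1-eGFP libraries, the same descending order as Id4. The measure ranks differences in centred values, size of change included, over the same 9 libraries and is a description.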

How the data were processed

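RNA was sequenced from sorted mouse brain cells, 9 libraries in 3 groups of 3. The authors deposited 1 normalized log2 value per gene and library; per the file headers the column is a normalized value, and the log scale was read from the values, with base 2 assumed for every fold. BWA, DESeq2 1.2.5 and mm10 are named in the submitters' processing notes, without their roles; how the values were normalized is not given in the sources used here. Their sorted values nearly coincide between libraries, so a difference reflects a gene's place within its library. Depth is unknown.

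limma 3.58.1 (R 4.3.3), with an intensity trend, was fitted to the values of all 11315 genes as they stand, 1 mean per group over the 9 libraries, no added constant. Tests were two-sided, with Benjamini-Hochberg adjustment over all genes and a threshold of 0.05. Fits were tested on simulated data. Transcript lengths (GENCODE M21, GRCm38) were found for 11272 symbols; 17 symbols turned into dates were not named. An exact permutation test of 3 against 3 libraries cannot give p under 0.1 and was not used. The members and gene lists were chosen with earlier results of these data known. Named genes were the Ids and E proteins, up to 4 called genes per bHLH or BMP list and comparison, defining markers, and the 4 genes most like each Id, leaving out predicted genes and those with over 5% shared sequence. Alternatives were other centring, constants, filters, a length correction, a replicate block, other limma settings and leaving out each library.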

Additional observations from a re-analysis of the deposited data

How the results depend on the processing

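No alternative changed an Id call except for Id4 in NDRG1-eGFP against PLP-GFP cells, which missed a threshold of 0.01 (-1.97, limma adjusted p = 0.0134) and, over the fits leaving out 1 library, ran from -2.67 to -1.57, with the call lost without PLP-GFP replicate 2 (-1.88). The uncalled differences between NDRG1-eGFP and PDGFRa-GFP cells changed sign: Id2 ran from -0.376 to 0.0436 when 1 library was left out, and Id3 from -0.0589 to 0.286, with -0.0223 after median ratio recentring and -0.0464 with the length trend removed. Among E proteins, Tcf12 with the length trend removed had 0.25 for NDRG1-eGFP against PLP-GFP, -0.24 for PLP-GFP against PDGFRa-GFP and 0.00978 for NDRG1-eGFP against PDGFRa-GFP cells, and Tcf3 in PLP-GFP against PDGFRa-GFP cells had -0.00475 after recentring and -0.0401 to 0.0744 when 1 library was left out. The causes were not tested.

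The labels do not say that replicate numbers pair libraries. Deviations of same-numbered libraries from their group means correlated at -0.234 to 0.0941. With 3 libraries per group such correlations cannot settle whether they are paired. With the replicate block, Id1 in NDRG1-eGFP against PLP-GFP cells kept its value of 3.66, Id4 there had an adjusted p of 0.024, and no Id call changed, but calls were lost for Acvr2a (1.08, adjusted p = 0.0581), Hey1 (-1.33, 0.0868), Smurf2 (-0.56, 0.0575) and Twsg1 (-0.46, 0.0727) in the comparisons where the report gives them. Called genes under the block were 2473 higher and 2207 lower, 338 and 384, and 457 and 864 in the 3 comparisons, against 2953 and 2507, 957 and 965, and 1207 and 1176 without it. The length correction gave 2106 and 1778, 435 and 498, and 1029 and 1013. Fitting only the groups compared gave 3704 and 3056, 552 and 514, and 318 and 724. PLP-GFP against PDGFRa-GFP calls fell to 92 and 186 when PLP-GFP replicate 2 was omitted, to 144 and 225 when PLP-GFP replicate 3 was, and to 376 and 383 when PDGFRa-GFP replicate 2 was. NDRG1-eGFP against PDGFRa-GFP calls rose to 2804 and 1817 without PDGFRa-GFP replicate 3. They fell to 655 and 892 without PDGFRa-GFP replicate 1, to 447 and 925 without NDRG1-eGFP replicate 1 and to 480 and 836 without NDRG1-eGFP replicate 2. At a threshold of 0.01 the counts were 1816 and 1710, 121 and 171, and 240 and 659. Leaving out PDGFRa-GFP replicate 3 and NDRG1-eGFP replicate 2 together, chosen after seeing the data, gave 1525 and 1366 for PLP-GFP against PDGFRa-GFP and 2262 and 1629 for NDRG1-eGFP against PDGFRa-GFP. The mean filter of 8 removed Id1 and Id4, and upper quartile recentring gave no value, since the libraries share that quartile. Depth is unknown, and what it limits was not tested; the lowest Id means were those of Id1 in PLP-GFP and Id4 in NDRG1-eGFP cells.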
